A study of Mus musculus with 8 samples.

Results

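The 10 genes described here make the peptides that MHC class I molecules display and bring them to those molecules. They were Tap1, Tap2, Tapbp, Psmb8, Psmb9, Psmb10, Psme1, Psme2, Nlrc5 and Erap1, taken by gene symbol, and all 10 were found among the 27998 genes of the count tables. They were followed in 8 single-cell RNA-Seq libraries of microglia, macrophages that reside in the brain and spinal cord, sorted as YFP (+) cells from the lumbar spinal cord of C57BL/6 mice. All animals carried the Cx3cr1-yfp-creER/+ allele, which places YFP and a tamoxifen-inducible Cre under the Cx3cr1 gene. Control animals had only this allele, and A20 cKO animals also had Tnfaip3 fl/fl, floxed alleles of the gene that encodes A20, an inhibitor of NF-kB signaling. Tamoxifen was given to start recombination. The methods place all experiments at a set time after its first dose, but do not name the control animals among those treated. Genotype therefore cannot be told apart from the drug here. Each genotype had a naive library and libraries made 1, 2 and 3 days after both sciatic nerves had been cut, a lesion after which microglia of the cord divide. Cords of several young adult animals of both sexes were pooled in each library, so every group was 1 library without a replicate, and Cx3cr1 drives YFP and Cre in other myeloid cells as well as in microglia.

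Proteins of the cytosol are cut into peptides by the proteasome, a barrel whose cutting sites are formed by 3 catalytic subunits. Under interferon, cells exchange these for the immunosubunits encoded by Psmb8, Psmb9 and Psmb10, which gives the immunoproteasome, and add the activator cap PA28 encoded by Psme1 and Psme2. TAP, a pair of the proteins of Tap1 and Tap2, pumps the peptides into the endoplasmic reticulum, the protein of Erap1 trims them there, and tapasin, encoded by Tapbp, holds empty class I molecules beside TAP until a peptide is bound. Nlrc5 encodes the transactivator of class I genes and of several of these genes. Resting microglia are known for low class I display, which rises under interferon.

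The members lay in a few places of the genome (build GRCm38). Psmb9 (chr17:34181987-34187764, minus strand), Tap1 (chr17:34187553-34197225, plus strand), Psmb8 (chr17:34197721-34201454, plus strand) and Tap2 (chr17:34203527-34216321, plus strand) stood side by side within 34.3 kb of the MHC region. Tapbp (chr17:33915899-33929292, plus strand) lay on the same chromosome. Psme1 (chr14:55578123-55581529, plus strand) and Psme2 (chr14:55587441-55591113, minus strand) were neighbours too. Psmb10 (chr8:105935735-105938444, minus strand) and Nlrc5 (chr8:94434356-94527272, plus strand) were on chromosome 8 and Erap1 (chr13:74639568-74693201, plus strand) was on chromosome 13. The gene models of Tap1 and Psmb9 overlapped at their 5′ ends, but the counts came from the 3′ ends of the transcripts, which lie apart.

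RefSeq windows from 250 bases before to 50 bases after the start of transcription (GRCm38.p6) were found for 8 of the 10 members, without Tap2 and Nlrc5. For some genes, such as Psmb8, Tapbp and Psmb9, the RefSeq start differed from the 5′ end of the gene model given above. Sequence of the members outside these windows was not searched. The windows of Tap1 and Psmb9 ran in opposite directions and overlapped in 275 of their 300 bases, with 226 bases between the start sites, so both genes start from 1 stretch of DNA. The window is shown because the transcripts on its 2 sides did not move alike between libraries, as described below. The windows of Erap1 and Psme1 are shown because they held an interferon-stimulated response element core, and that of Psmb8 because it held a gamma-activated site. Capitals mark all matches, on either strand, to the 5 motifs searched.
Tap1 and Psmb9, read in the direction of Tap1 (chr17:34187306-34187605, plus strand): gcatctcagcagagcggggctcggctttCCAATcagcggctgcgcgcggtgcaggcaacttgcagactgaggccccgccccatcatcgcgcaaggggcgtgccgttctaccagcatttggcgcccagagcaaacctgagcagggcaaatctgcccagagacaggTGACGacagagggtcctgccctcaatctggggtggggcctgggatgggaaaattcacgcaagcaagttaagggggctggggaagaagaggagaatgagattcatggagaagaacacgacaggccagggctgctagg
Erap1 (chr13:74639603-74639902, plus strand): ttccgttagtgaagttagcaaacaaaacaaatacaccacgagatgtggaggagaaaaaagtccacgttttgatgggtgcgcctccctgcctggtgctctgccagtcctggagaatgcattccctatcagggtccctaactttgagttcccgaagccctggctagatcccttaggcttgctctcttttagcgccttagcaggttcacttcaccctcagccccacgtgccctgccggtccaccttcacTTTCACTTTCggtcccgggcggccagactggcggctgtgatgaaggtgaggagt
Psme1 (chr14:55578244-55578543, plus strand): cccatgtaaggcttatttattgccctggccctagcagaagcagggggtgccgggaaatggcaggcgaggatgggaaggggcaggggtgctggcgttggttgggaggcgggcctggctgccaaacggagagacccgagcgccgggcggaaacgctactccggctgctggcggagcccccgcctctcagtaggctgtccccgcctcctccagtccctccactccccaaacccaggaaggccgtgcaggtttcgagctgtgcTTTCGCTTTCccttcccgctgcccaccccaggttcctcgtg
Psmb8 (chr17:34197945-34198244, plus strand): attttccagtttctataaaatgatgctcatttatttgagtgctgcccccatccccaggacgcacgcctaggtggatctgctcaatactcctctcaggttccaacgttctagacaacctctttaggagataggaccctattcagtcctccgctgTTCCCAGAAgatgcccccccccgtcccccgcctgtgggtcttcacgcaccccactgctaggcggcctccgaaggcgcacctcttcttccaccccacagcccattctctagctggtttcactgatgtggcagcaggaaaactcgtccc

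The interferon-stimulated response element core was searched as GAAANNGAAA and matched in the windows of Psme1 and Erap1, as it did in 3.44% of all 32851 promoter windows. In Erap1 the match spanned the start site and in Psme1 it lay just after it. The gamma-activated site was searched as TTCNNNGAA and matched only in the window of Psmb8 among the 8 members, against 8.30% of all windows. The kB consensus matched in none of the 8 members and in 4.51% of all windows. The Y box, searched as ATTGG, matched in Tap1, Psmb9 and Tapbp and in 37.4% of all windows, and the half-site of the cyclic AMP response element, searched as TGACG, matched in Tap1, Psmb9 and Psme2 and in 20.8% of all windows. The Y box and the half-site of the Tap1 and Psmb9 windows were the same letters seen from both sides. A match is a description of these letters only.

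In all, 14626 of 14883 cell barcodes were kept, and the libraries held between 1648400 and 15817426 unique molecular identifiers (UMIs, 1 for each captured RNA molecule), with medians of 2780 to 4274 UMIs per kept cell. P2ry12 and Tmem119, which mark microglia, were found in at least 90.1% and 96.2% of kept cells in every library. The 8 microglia markers together were lower in the barcode-sharing libraries described next, at 11892 to 18936 counts per 1000000 UMIs (CPM) against 19957 to 24672 CPM in the other 3. Fcrls, another of them, was found in 92.8% to 97.6% of cells in control naive to day 2, in 86.1% in control day 3, and in 59.9%, 31.9% and 26.7% in A20 cKO days 1, 2 and 3, with A20 cKO naive close to day 1. The part of these markers in the results was not tested. The libraries did not all stand alike. Control day 3 and the 4 A20 cKO libraries shared cell barcodes with each other at a median of 13.7 per 1000000 barcode pairs, against 1.59 among control naive, day 1 and day 2 and 1.94 between the sets. The ranges overlapped, at 5.41 to 67.6 within the 5 libraries and 0.80 to 8.83 between the sets. Control day 3 with A20 cKO naive had the lowest rate within the 5, below control naive with A20 cKO day 1 at 8.83. The same 5 libraries held more RNA of other cell types. The 4 neutrophil markers summed to 20.1 to 35.0 CPM in them and were all at 0 in the other 3, the 3 monocyte markers to 24.4 to 83.7 against 1.85 to 3.70 CPM, and the 4 oligodendrocyte markers to 109 to 166 against 22.6 to 36.4 CPM. The monocyte sum of the 5 was almost all Plac8, at 22.1 to 83.4 against 0.92 to 1.85 CPM. Ccr2 did not separate the sets, at 0.33 to 2.36 against 0.63 to 1.85 CPM, and Ly6c2 was at most 0.66 CPM in any library. Cd163, a marker of macrophages at the borders of the cord, was at 0 in all 8 libraries, and the 4 markers of those cells summed to at most 2.31 CPM. The comparisons of control day 3 with control naive or day 2 and of A20 cKO naive with control naive cross this division, so genotype or time cannot be told apart from it there. The remaining 7 comparisons do not cross it.

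Tnfaip3, the targeted gene, had 24.1, 25.3, 6.83 and 20.3 CPM in control naive to day 3 and 47.4, 42.3, 52.4 and 67.7 CPM in A20 cKO naive to day 3. It was thus higher in every library labelled A20 cKO than in any control library. The sources used here do not give the deleted part of the gene, and 3′ counts outside it do not check the deletion, so both genotypes are named here only as the labels name them.

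The 10 genes together had 1238, 1166, 1244 and 1500 CPM in control naive to day 3 and 1548, 1622, 2069 and 2103 CPM in A20 cKO naive to day 3. Their RNA therefore lay at 3 heights, with control naive to day 2 lowest, control day 3 with A20 cKO naive and day 1 between, and A20 cKO days 2 and 3 highest. The single genes did not share this pattern equally. The plot of levels by library shows Tap1, Nlrc5 and Erap1 rising most between control day 2 and control day 3, with smaller rises of Tap2 and Psmb9. That step crosses the division of the libraries. Tap1, Nlrc5, Psmb8, Psmb9, Psme1 and Psme2 were higher at A20 cKO days 2 and 3 than in A20 cKO naive. Tapbp and Psmb10 varied least over the 8 libraries. Intervals given after values are at 95% and cover counting error only, and fewer cells expressing a gene cannot be told apart from less RNA per cell in such sums. Levels are compared between libraries and not between genes.

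**Figure D1:**
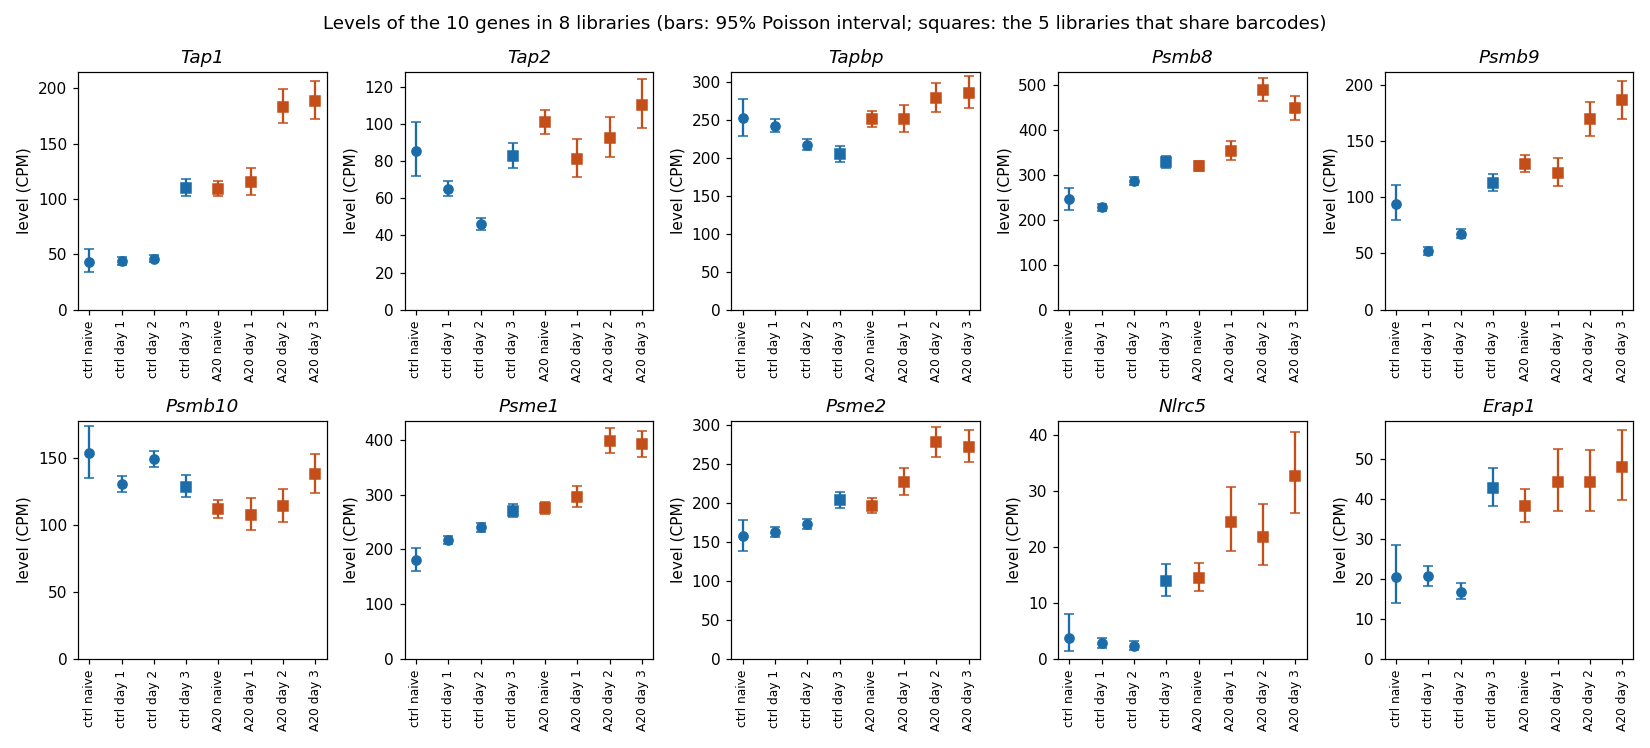
Level of each of the 10 genes (y axis, CPM, from 0) in the 8 libraries (x axis, control in blue and A20 cKO in orange). Bars are exact Poisson 95% intervals and squares mark the 5 libraries that share barcodes. Tap1 lies between 43.2 and 46.0 CPM in control naive to day 2 and at 109.3 CPM or more in the other 5 libraries.

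Nlrc5, the class I transactivator, had the widest range of the 10, from 2.28 CPM in control day 2 to 32.7 CPM in A20 cKO day 3, which is 14.3-fold. It stood at 3.70, 2.77 and 2.28 CPM in control naive, day 1 and day 2 (6, 39 and 36 UMIs) and at 13.9 CPM (101 UMIs) in control day 3. In the A20 cKO libraries it stood at 14.5, 24.4, 21.8 and 32.7 CPM in naive, day 1, day 2 and day 3. The first 3 control libraries overlapped in their intervals and lay below all 5 others, and among those 5 no neighbours in the order were apart beyond their intervals. Between A20 cKO naive and day 3, both within the barcode-sharing set, the log2 ratio was 1.18 (0.76 to 1.58).

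Tap1, a subunit of the peptide pump, had 43.2, 44.1 and 46.0 CPM in control naive, day 1 and day 2 and 110.2 CPM in control day 3. It had 109.3 and 115.2 CPM in A20 cKO naive and day 1, and 183.3 and 188.5 CPM in A20 cKO days 2 and 3. The 3 steps were apart beyond their intervals, while the libraries within each step were not. Tap2, its partner in the pump, did not follow these steps. It had 85.8, 65.3, 46.2 and 83.2 CPM in control naive to day 3 and 101.1, 81.2, 92.6 and 110.6 CPM in A20 cKO naive to day 3. Control day 1 and day 2 were its lowest libraries and the other 6 formed a row without a gap between neighbours. From control naive to day 2 the log2 ratio of Tap2 was -0.90 (-1.16 to -0.62) and that of Tap1 0.08 (-0.26 to 0.47).

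Erap1, the peptide-trimming enzyme, had 20.4, 20.6 and 16.8 CPM in control naive, day 1 and day 2, 42.8 CPM in control day 3, and 38.2, 44.2, 44.2 and 48.0 CPM in A20 cKO naive to day 3. Its 2 heights matched the division of the libraries, with little movement inside the upper one. Tapbp, the tapasin gene, had 251.8, 242.1, 217.0 and 204.8 CPM in control naive to day 3 and 250.7, 251.0, 278.2 and 285.7 CPM in A20 cKO naive to day 3. It was the steadiest of the 10, with 1.40-fold between the highest and the lowest library, and control day 3 was its lowest.

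Psmb8, the immunosubunit that replaces Psmb5, had 246.2, 227.2, 285.9 and 328.7 CPM in control naive to day 3 and 319.2, 352.7, 488.8 and 447.8 CPM in A20 cKO naive to day 3. A20 cKO days 2 and 3 stood above all other libraries. Psmb9, which replaces Psmb6, had 94.4, 52.2, 67.5 and 113.1 CPM in control naive to day 3 and 129.8, 121.8, 169.4 and 186.5 CPM in A20 cKO naive to day 3. It was lowest in control day 1, where it was apart from every other library. Psmb10, which replaces Psmb7, had 153.7, 131.0, 149.5 and 128.9 CPM in control naive to day 3 and 112.0, 107.6, 114.0 and 138.1 CPM in A20 cKO naive to day 3. No neighbours in its order were apart, and control naive was its highest library.

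The 2 PA28 genes moved together. Psme1 had 181.4, 217.6, 240.3 and 270.5 CPM in control naive to day 3 and 276.1, 296.5, 398.5 and 392.3 CPM in A20 cKO naive to day 3. Psme2 had 157.4, 163.2, 172.8 and 204.3 CPM in control naive to day 3 and 196.9, 227.2, 278.2 and 272.7 CPM in A20 cKO naive to day 3. For both genes A20 cKO days 2 and 3 were the highest libraries and control naive the lowest. Psme1 was the only member that was higher in each control library than in the one before with no overlap of intervals.

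A member was counted as changed in a comparison where its CPM differed at least 2-fold and both libraries together held at least 100 of its UMIs. No p-value is given, since cells of a pool are not replicates. The median log2 ratio over all genes differed from 0 by more than 0.1 in 4 comparisons. It was -0.13 for control day 1 and -0.12 for control day 2, each against control naive, 0.15 for control day 3 against control day 2, and -0.12 for A20 cKO day 3 against control day 3. For these, values relative to that median are given beside the ratios.

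In the first 2 days after the lesion the control libraries showed no member past 2-fold. On day 1 against naive, 0 of 9 members with enough UMIs were 2-fold higher or lower, where 3.82% of all 8866 genes tested were 2-fold higher and 7.25% 2-fold lower. The median of the 9 was -0.06, or 0.07 relative to the median gene. The widest ratio was that of Psmb9 at -0.86 (-1.11 to -0.59), or -0.73 relative to the median gene, while Tap1, which starts from the same stretch of DNA, stood at 0.02 (-0.33 to 0.41), or 0.15. On day 2 against naive, 0 of 9 members were past 2-fold in either direction, against 5.92% of genes higher and 6.28% lower. Tap2 was lowest at -0.90, or -0.78 relative to the median gene, and Psme1 highest at 0.40 (0.23 to 0.58), or 0.52. Nlrc5 had too few UMIs to be counted on both days.

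At control day 3, 3 of 10 members stood at least 2-fold above control naive, against 8.76% of all genes, and 0 stood 2-fold below, against 2.32%. They were Nlrc5 with a log2 ratio of 1.80 (0.73 to 3.38), Tap1 with 1.34 (1.00 to 1.72) and Erap1 with 1.05 (0.55 to 1.64), which was 0.98 relative to the median gene and so under 2-fold on that scale. Psme1 followed with 0.57 (0.40 to 0.76), and Tapbp and Psmb10 were lower, at -0.30 (-0.46 to -0.14) and -0.26 (-0.46 to -0.05). Against control day 2, a library with many more cells than the naive one, the same 3 genes passed 2-fold higher, with log2 ratios of 2.59, 1.26 and 1.35, or 2.45, 1.11 and 1.20 relative to the median gene. There 13.1% of all genes were 2-fold higher and 2.69% lower, and 0 members were lower. Both comparisons cross the division of the libraries. Without the cells that held a UMI of a monocyte or neutrophil marker (11.0% of control day 3 and 0.88% of control naive), the ratios to control naive were 1.66 for Nlrc5, 1.28 for Tap1 and 0.96 for Erap1. Only Tap1 was then counted as changed, since Erap1 lay under 2-fold and Nlrc5 held 86 UMIs in both libraries together.

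**Figure D2:**
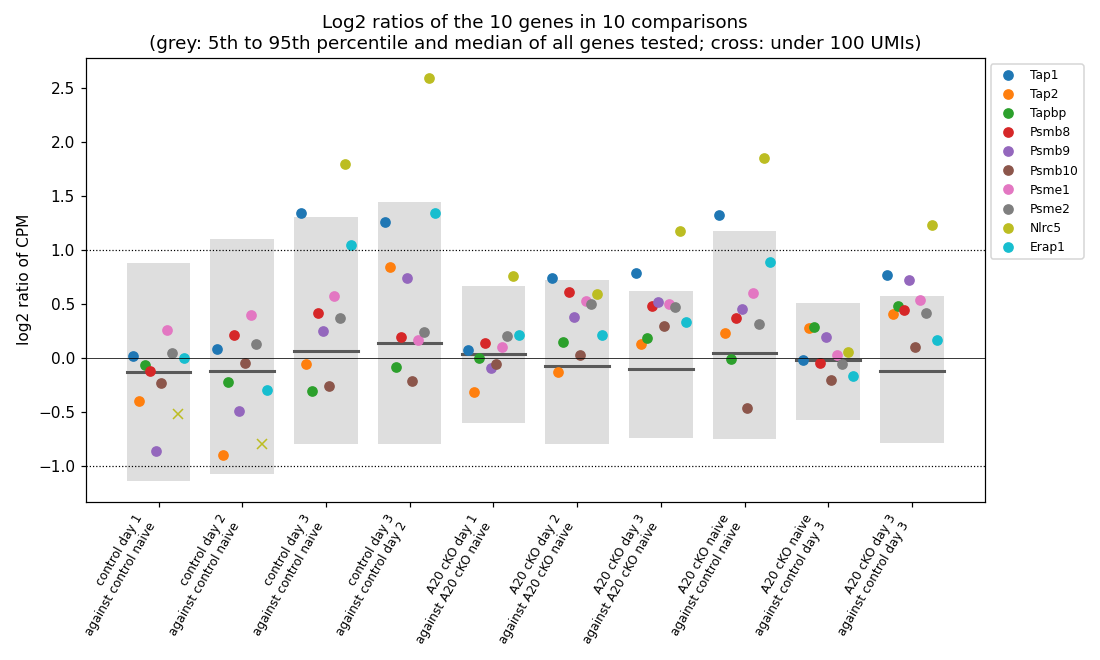
Log2 ratio of CPM (y axis) of each of the 10 genes, in its own colour, in the 10 comparisons (x axis). Grey bands run from the 5th to the 95th percentile of all genes tested with their median as a line, dotted lines mark 2-fold, and crosses mark Nlrc5 where it had under 100 UMIs. Nlrc5 lies above the band in 6 of the 8 comparisons in which it was counted, and all 10 genes lie close to 0 for A20 cKO naive against control day 3.

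Within the A20 cKO libraries, all of which share barcodes, day 1 had no member past 2-fold from naive. 0 of 10 members were past 2-fold higher or lower, against 1.56% and 1.39% of all genes, with a member median of 0.09 beside 0.04 over all genes. Nlrc5 was highest at 0.76 (0.32 to 1.18), above the 95th percentile of all genes at 0.67, and Tap2 lowest at -0.31 (-0.53 to -0.11). On day 2 against naive again 0 of 10 were past 2-fold in either direction, against 2.86% and 2.65% of all genes, but the median of the 10 was 0.44, beside -0.07 over all 8921 genes tested. Tap1 stood at 0.75 (0.59 to 0.90), Psmb8 at 0.62 (0.52 to 0.71), Psme1 at 0.53 (0.43 to 0.63) and Psme2 at 0.50 (0.38 to 0.62), while Tap2 and Psmb10 stood at -0.13 (-0.33 to 0.07) and 0.03 (-0.15 to 0.20). On day 3 against naive all 10 ratios were above 0, with a median of 0.48 beside -0.10 over all genes. Nlrc5 was the only one past 2-fold, where 1.92% of all genes were 2-fold higher, and 0 were 2-fold lower, where 2.00% of all genes were. Tap1 stood at 0.79 (0.63 to 0.95), Psmb9 at 0.52 (0.37 to 0.68) and Psmb10 at 0.30 (0.12 to 0.48).

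Between genotypes, A20 cKO naive against control naive had 2 of 10 members 2-fold higher, against 7.43% of all genes, and 0 lower, against 2.22%. They were Nlrc5 at 1.86 (0.80 to 3.44) and Tap1 at 1.33 (0.99 to 1.71), followed by Erap1 at 0.89 (0.39 to 1.47). Psmb10 was lower at -0.46 (-0.66 to -0.25). This comparison crosses the division, with monocyte or neutrophil marker UMIs in 11.8% and 0.88% of cells, and without those cells the ratios were 1.74 for Nlrc5 and 1.24 for Tap1. Control day 3 and A20 cKO naive are both in the barcode-sharing set, though at its lowest rate of 5.41 per 1000000 barcode pairs. Against control day 3, A20 cKO naive had 0 of 10 members past 2-fold higher or lower, against 0.964% and 1.49% of all genes. The median of the members was then 0.01, with Tap1 at -0.01 (-0.15 to 0.12), Nlrc5 at 0.06 (-0.33 to 0.45), Tapbp highest at 0.29 (0.20 to 0.39) and Psmb10 lowest at -0.20 (-0.33 to -0.07).

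At day 3, A20 cKO against control, both in the barcode-sharing set, had all 10 members above 0 with a median of 0.46, or 0.58 relative to the median gene. Nlrc5 at 1.24 (0.80 to 1.67), or 1.35, was the only 1 of 10 past 2-fold higher, against 1.86% of all genes, and 0 were 2-fold lower, against 2.40%. Tap1 at 0.77 (0.61 to 0.94), or 0.89, and Psmb9 at 0.72 (0.56 to 0.89), or 0.84, came next. Psmb10 at 0.10 (-0.08 to 0.28), or 0.22, and Erap1 at 0.17 (-0.15 to 0.47), or 0.29, were closest to 0.

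The immunosubunits displace constitutive partners, so the UMIs of each were also taken as a share of those of its pair. Capture may differ between 2 genes, so only the movement of a share between libraries is read. Psmb8 made up 67.4% (63.5 to 71.2) of the UMIs of Psmb8 and Psmb5 in control naive, 58.6% and 62.5% on days 1 and 2, and 75.9% (74.4 to 77.4) on day 3. In A20 cKO naive to day 3 its share was 77.0%, 79.3%, 83.1% and 80.3%, above that of control day 3, with overlapping intervals for naive and day 1. Psmb9 made up 35.0% (30.5 to 39.7) of its pair with Psmb6 in control naive, 17.5% (16.3 to 18.7) and 18.8% (17.8 to 19.8) on days 1 and 2, and 36.9% on day 3. In A20 cKO naive to day 3 its share was 44.0%, 38.3%, 46.6% and 50.5%. Psmb10 made up 63.5% of its pair with Psmb7 in control naive, between 57.1% and 58.7% in the later controls, and between 51.5% and 61.0% in the A20 cKO libraries. All 3 shares were lower in control day 1 than in control naive, and on control day 3 the shares of Psmb8 and Psmb9 were above those of day 2 beyond their intervals while that of Psmb10 was not.

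**Figure D3:**
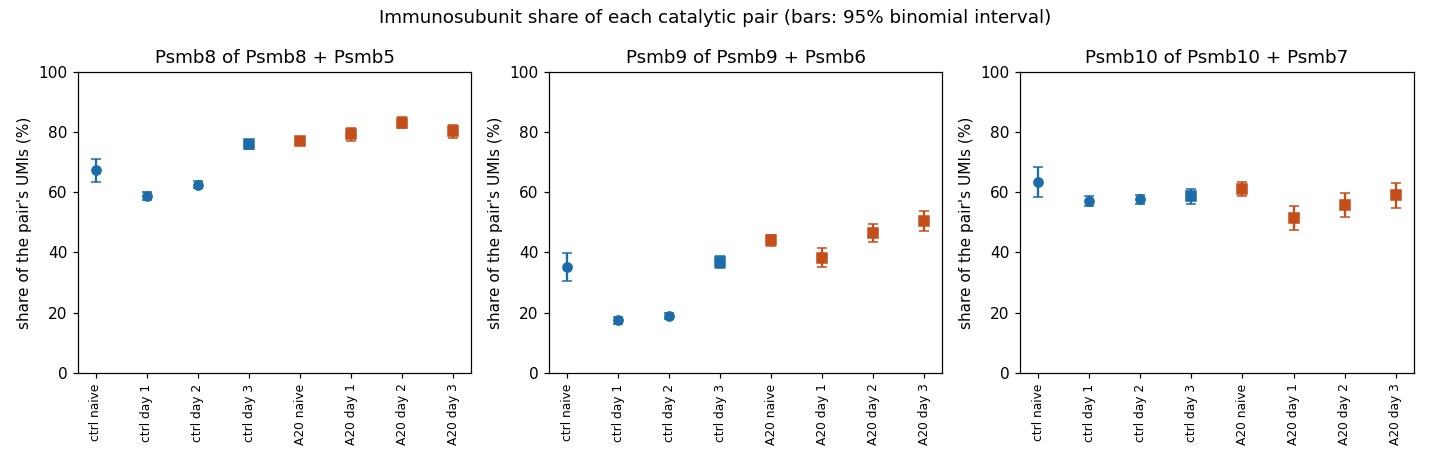
Share of the UMIs of each catalytic pair that belonged to the immunosubunit (y axis, percent, 0 to 100) in the 8 libraries (x axis, control in blue, A20 cKO in orange). Bars are exact Clopper-Pearson 95% intervals and squares mark the 5 libraries that share barcodes. The Psmb9 share is lowest at control days 1 and 2, at 17.5% and 18.8%, and highest at A20 cKO day 3, at 50.5%.

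The constitutive partners were higher on days 1 and 2. Psmb6 had 175.3 CPM in control naive and 246.5 and 292.0 CPM on days 1 and 2, and Psmb5 had 119.1 CPM and then 160.5 and 171.5 CPM. Psmb7 had 88.2 CPM and then 98.4 and 109.6 CPM, and the interval of its day 1 log2 ratio, 0.15 (-0.09 to 0.42), spanned 0. Psmb9 itself was lower on both days, at log2 ratios to control naive of -0.86 and -0.49, while Psmb8 stood at -0.12 (-0.27 to 0.04) and 0.21 (0.07 to 0.37). The 14 constitutive 20S subunits were all above 0 in log2 ratio to control naive on both days, with medians of 0.30 and 0.48. In the 10 comparisons 0 of the 14 passed 2-fold, where 0.964% to 13.1% of all genes were 2-fold higher and 1.39% to 7.25% lower. Cells with 3 or more core S or core G2/M genes, which mark cycling cells, were 0.70% of control naive, 9.48% of day 1, 43.8% of day 2 and 17.1% of day 3, and between 6.43% and 24.4% of the A20 cKO libraries. Without those cells 4 of the 24 pair shares left their intervals, by at most 4.93 percentage points, and the Psmb9 share was 35.1% in control naive, 17.9% on day 1 and 20.1% on day 2.

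For the share of cells with a UMI, cells were thinned to 2000 UMIs each, which kept 13691 cells. Tap1 was then found in 8.76%, 8.62%, 8.79% and 17.3% of control naive to day 3 cells and in 16.9%, 18.4%, 27.5% and 30.9% of A20 cKO naive to day 3 cells. Unthinned, these shares were 11.8%, 16.7%, 17.9% and 28.1%, and 24.4%, 29.2%, 49.2% and 54.3%. The thinned shares held the same 3 steps as the levels. UMIs of Nlrc5 lay in 0.80%, 0.34%, 0.37% and 2.77% of control cells and in 2.41%, 4.70%, 4.95% and 5.02% of A20 cKO cells after thinning, and unthinned in 1.06%, 1.11%, 0.98% and 4.49% of control cells and in 4.28%, 7.45% and 8.85% of A20 cKO naive to day 2 cells and 67 of 558 day 3 cells. Psmb8 ranged from 35.6% in control day 1 to 62.0% in A20 cKO day 2 after thinning and from 46.1% in control naive to 80.2% in A20 cKO day 2 before it. The libraries held no cell type expected to lack these genes, so the share that free RNA alone gives was not measured. Mbp, a gene of oligodendrocytes, had a UMI in between 5.42% and 6.53% of kept cells in control naive, day 1 and day 2 and in between 18.5% and 41.5% in the 5 libraries that share barcodes.

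Few cells had UMIs of all 3 immunosubunits at this depth, and a cell without a UMI of a gene may still have held its RNA. The median thinned cell had UMIs of 2 of the 10 genes in 6 libraries and of 3 in A20 cKO days 2 and 3. Cells with UMIs of all 3 immunosubunits were 1.59% (0.69 to 3.12) of control naive, 0.90% and 1.06% of days 1 and 2, 2.56% of day 3, and 2.34%, 2.41%, 3.51% and 5.20% (3.49 to 7.43) of A20 cKO naive to day 3. How unevenly the UMIs of a gene lay over cells was measured by the variance over the mean, which is near 1 where counting alone places them. That of Tap1 ran from 0.914 in control naive to 1.19 in A20 cKO day 2, beside medians over all genes of 1.01 to 1.05. Psme1 at 1.24 in A20 cKO naive and day 1 and Psme2 at 1.15 in A20 cKO naive lay above the 95th percentile of all genes, which rounded to 1.15 in naive and 1.24 in day 1, so only Psme1 in naive exceeded it by more than the rounding.

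To see which cells held these transcripts, thinned cells were called interferon-marked where they had UMIs of at least 3 of 15 interferon-stimulated genes such as Ifit3, Isg15 and Irf7, none of which is a member. Marked cells were 9.96%, 3.91%, 9.83% and 57.9% of control naive to day 3 and 48.9%, 56.5%, 92.0% and 94.2% of A20 cKO naive to day 3. The class is a range of a count and not a cell type, and cells with exactly 2 or 3 of the genes, next to its limit, numbered between 87 and 1042 per library. Within control day 3 the 10 genes together had 1642 CPM in marked cells and 1193 CPM in the others, and within A20 cKO naive 1845 and 1110 CPM. The median log2 ratio of marked over other cells, over the members with at least 100 UMIs, was 0.44 in control day 3, 0.80 in A20 cKO naive and 0.75 in A20 cKO day 1, beside -0.02, -0.09 and -0.09 over all genes with as many UMIs. It was 0.22, 0.33 and 0.16 in control naive, day 1 and day 2, beside 0.01, 0.02 and 0.00. In A20 cKO days 2 and 3 it was 0.44 and 0.36, beside 0.01 and -0.02. Control day 2 had 342 marked cells, and there no member was higher in marked cells beyond its interval.

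Among the members other than Nlrc5, Tap1 had the widest such ratio in control day 3 and A20 cKO naive and Psmb9 in A20 cKO day 1, at 1.31 (0.84 to 1.82). Tap1 stood at 1.03 (0.70 to 1.38) in control day 3 and 1.01 (0.53 to 1.52) in A20 cKO day 1, with an interval of 1.22 to 1.80 in A20 cKO naive. Nlrc5 stood at 1.12 (0.23 to 2.19), 1.77 (0.94 to 2.74) and 1.60 (0.52 to 2.99) in the same libraries. Psmb9 was higher in marked cells in 5 of 8 libraries beyond its interval, including control naive at 1.17 (0.31 to 1.89) and control day 1 at 1.11 (0.45 to 1.67), where Tap1 stood at -0.39 (-2.93 to 1.05) and 0.74 (-0.07 to 1.39). Psmb10, Tap2 and Erap1 were each higher in marked cells beyond their interval in 2 libraries. No member was lower in marked cells beyond its interval in any library. A20 cKO days 2 and 3 had only 50 and 31 cells left unmarked, and their ratios carry wide intervals.

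**Figure D4:**
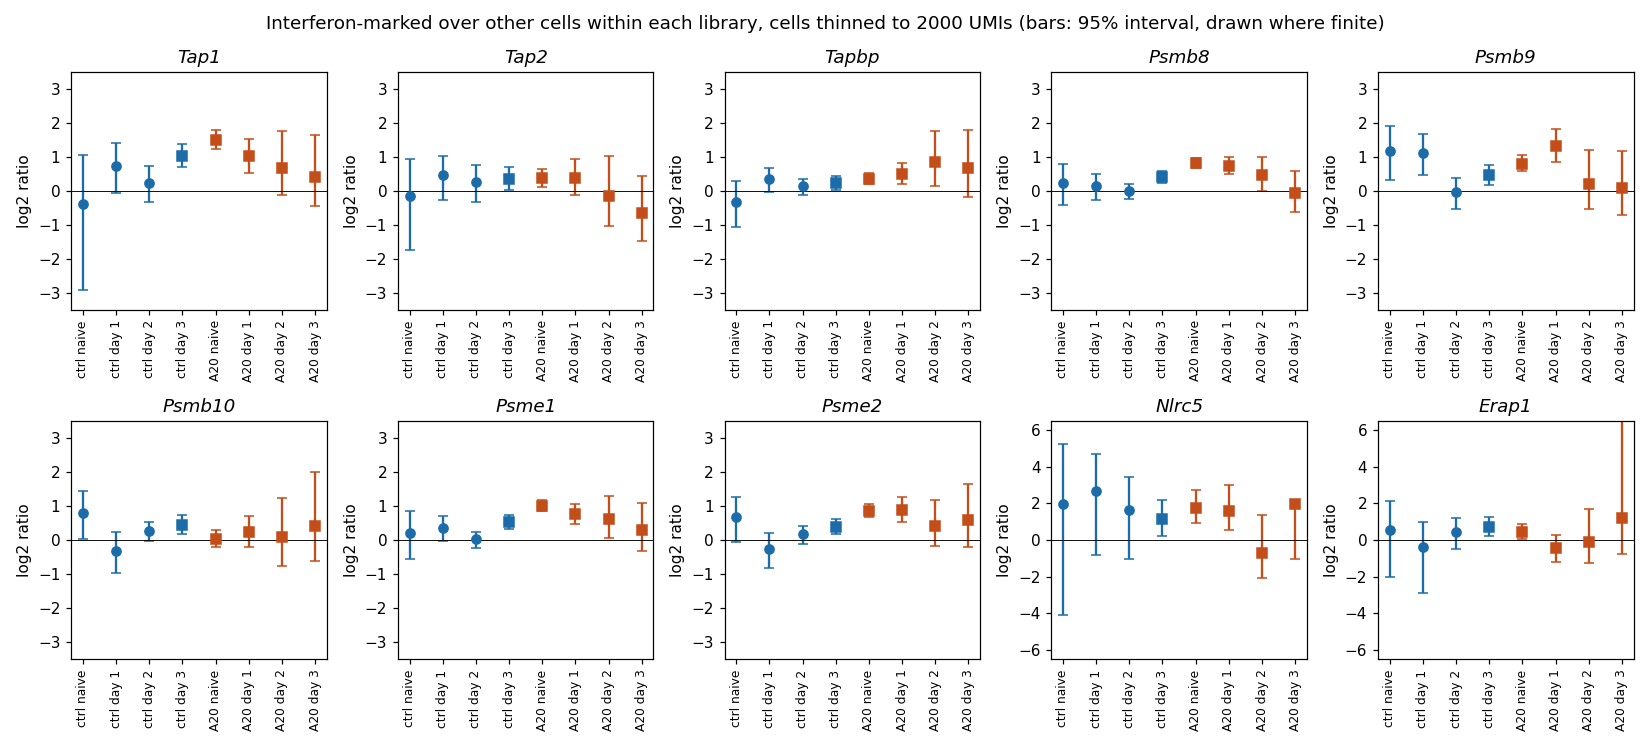
Log2 ratio of each gene's level in interferon-marked over other cells of the same library (y axis, with a wider scale for Nlrc5 and Erap1) in the 8 libraries (x axis, control in blue, A20 cKO in orange). Bars are exact conditional 95% intervals, not drawn where infinite and running off the panel for Erap1 in A20 cKO day 3. Tap1 is at 1.03 in control day 3 and Psmb10 at 0.44, and in A20 cKO naive Tap1 lies higher still while Psmb10 is at 0.04.

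Among the unmarked cells alone, the Tap1 ratios across the division of the libraries were smaller than over all cells, and those within the barcode-sharing libraries were not. The unmarked cells were not alike between libraries. In A20 cKO days 2 and 3, 40 of 50 and 23 of 31 had UMIs of exactly 2 interferon genes, against 427 of 1334 in A20 cKO naive. These ratios therefore do not hold the interferon genes fixed, and those of days 2 and 3 rest on 11 and 9 Tap1 UMIs. Unmarked cells of A20 cKO naive had 51.3 CPM of Tap1 and those of control naive 45.4 CPM, a log2 ratio of 0.17 (-0.33 to 0.72), and control day 3 had 62.7 CPM, a ratio of 0.46 (-0.07 to 1.03) to control naive and of 0.47 (0.12 to 0.80) to control day 2. Between unmarked cells of A20 cKO day 1 and naive the Tap1 ratio was 0.41 (-0.10 to 0.88), and from the 50 and 31 unmarked cells of days 2 and 3 it was 1.16 (0.06 to 1.98) and 1.57 (0.34 to 2.47) to naive. Against control day 3 it was -0.29 (-0.67 to 0.10) for A20 cKO naive and 1.28 (0.04 to 2.19) for A20 cKO day 3. Erap1 stood at 0.40 (-0.28 to 1.19) and 0.43 (-0.32 to 1.26) for A20 cKO naive and control day 3 against control naive. Nlrc5 stood at 0.59 (-1.06 to 3.19) and 1.14 (-0.55 to 3.76) in the same comparisons, with counts too low to place it.

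The class I molecules that receive the peptides differed from the members in some comparisons and not in others. H2-K1, a classical heavy chain, had 457.9, 387.7, 310.3 and 384.0 CPM in control naive to day 3 and 1231, 1026, 1713 and 2160 CPM in A20 cKO naive to day 3. H2-D1, the other classical heavy chain of this strain, had 1514, 929.5, 889.3 and 1045 CPM and then 3358, 3166, 4609 and 5375 CPM. B2m, the light chain, had 5041, 3221, 3779 and 4202 CPM and then 8053, 7927, 11198 and 12470 CPM. In control day 3 these 3 genes were below control naive, while Tap1, Nlrc5 and Erap1 were above it. Of 7 heavy chains tested there, 4 were below control naive and 3 above, among them H2-Q4 (75.3 against 48.8 CPM) and H2-T22 (58.9 against 32.7 CPM). Within the A20 cKO libraries the medians of the heavy chains against naive were -0.12, 0.47 and 0.70 on days 1, 2 and 3. Those of the members were 0.09, 0.44 and 0.48.

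Where the members of A20 cKO naive stood at a median of 0.01 against control day 3, the 8 heavy chains stood at 1.62, and 5 of 8 were 2-fold higher, where 0.964% of all genes were. H2-K1 was at 1.68 (1.62 to 1.74), H2-D1 at 1.68 (1.65 to 1.72), B2m at 0.94, and the largest, H2-Q7, at 3.82. At day 3, A20 cKO against control, 7 of 8 heavy chains were 2-fold higher, where 1.86% of all genes were, with a median of 2.33, or 2.45 relative to the median gene, beside 0.46, or 0.58, for the 10 members. H2-K1 was at 2.49 (2.43 to 2.56), H2-D1 at 2.36 (2.32 to 2.40) and B2m at 1.57 (1.55 to 1.59). Heavy chain genes resemble each other in sequence, and how reads were split between H2-Q6, H2-Q7 and the others is uncertain.

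**Figure D5:**
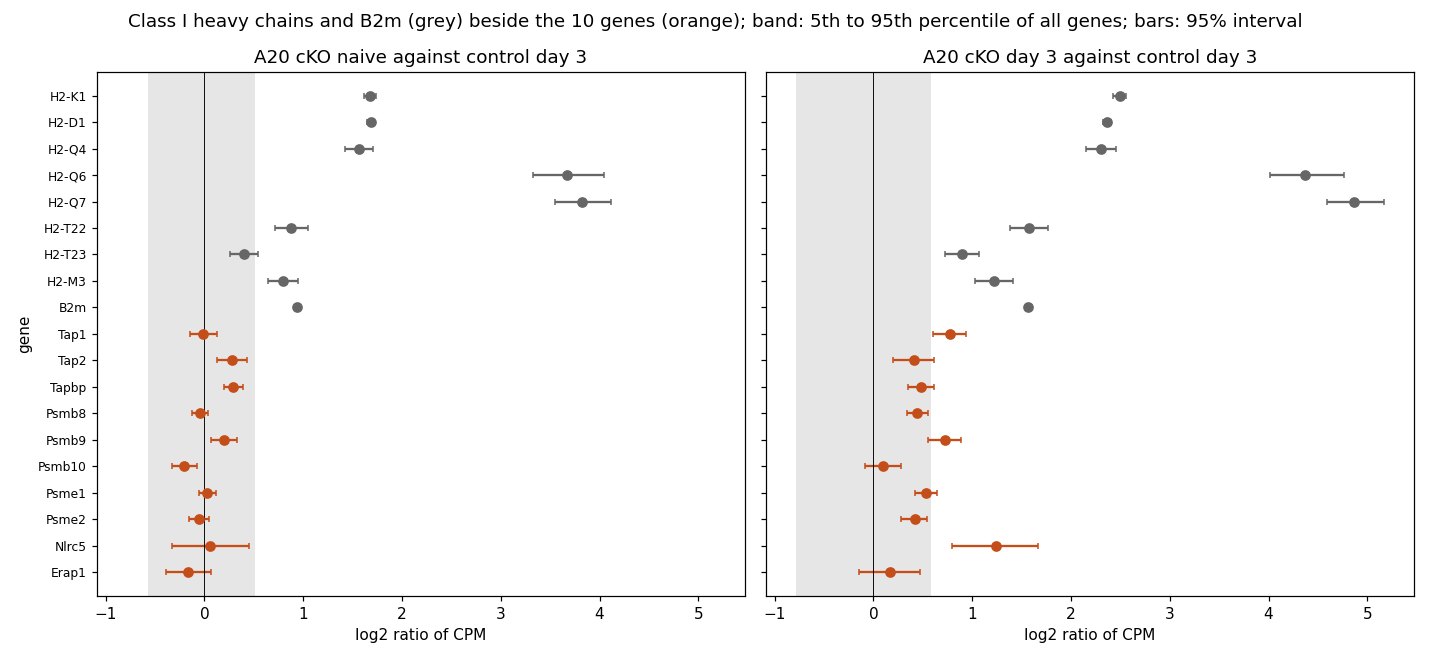
Log2 ratio of CPM (x axis) of the 8 class I heavy chains and B2m (grey) and of the 10 genes (orange) for A20 cKO naive and A20 cKO day 3, each against control day 3. Bars are exact conditional 95% intervals and the grey band runs from the 5th to the 95th percentile of all genes tested. H2-K1 is at 1.68 and 2.49, and Tap1 at -0.01 and 0.77.

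Other genes of the pathway were counted from lists of 71 symbols, of which 70 were found. Of 13 regulators tested on control day 1 against naive, 3 were 2-fold lower, where 7.25% of all genes were, among them Stat2 at -1.32 (-1.80 to -0.79) and Rfx5 at -1.07 (-1.67 to -0.39), and 1 was higher, where 3.82% of all genes were, Relb at 1.16 (0.71 to 1.69). Stat2 encodes a signal transducer of interferon receptors, Rfx5 a subunit of the factor that Nlrc5 joins at class I promoters, and Relb an NF-kB subunit. At control day 3 against naive, 2 of 13 were higher, where 8.76% of all genes were, among them Stat2 at 2.06 (1.64 to 2.55), which was also higher in A20 cKO naive against control naive, at 1.48 (1.06 to 1.97), where 7.43% of all genes were 2-fold higher. In A20 cKO day 3 against control day 3 only Relb of the regulators tested was past 2-fold, at 1.61 (1.26 to 1.96), where 1.86% of all genes were 2-fold higher. Stat2 had 27.2, 11.0, 16.3 and 114.5 CPM in control naive to day 3 and 76.7, 89.8, 113.7 and 130.6 CPM in A20 cKO naive to day 3.

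Of the 10 loading partners, Hspa5, an endoplasmic reticulum chaperone, at 1.65 (1.54 to 1.76) and Calr, which encodes calreticulin of the loading complex, at 1.07 (0.95 to 1.20) were 2-fold higher on control day 1 against naive, where 3.82% of all genes were, and 0 were lower. For the counts that follow, the shares of all genes 2-fold higher and lower than control naive were 3.82% and 7.25% on day 1. They were 5.92% and 6.28% on day 2 and 8.76% and 2.32% on day 3. Of the 8 heavy chains only H2-T23 was past 2-fold on day 1, at -1.34 (-1.56 to -1.11), and it stood at -1.41 on day 2. Of 6 cytosolic peptidases, Thop1, which encodes a peptidase that degrades class I peptides, was higher on day 1 at 2.27 (1.16 to 4.04), from 5 UMIs in control naive, and Lnpep, which encodes an aminopeptidase of endosomes, lower at -1.39 (-1.79 to -0.94). Of the 8 assembly factors and other activators, Psme3, which encodes the nuclear activator PA28 gamma, was higher on day 1 at 1.02 (0.61 to 1.49), and Psme4, which encodes PA200, was higher at control day 3 at 1.09 (0.55 to 1.73). Of the 9 interferon receptors and ligands 0 passed 2-fold against control naive on any day, with 6 tested on day 1 and 7 on days 2 and 3. With so few tested, these counts lie near the shares of all genes. For control day 3 against control day 2, 1 of 7 was 2-fold higher, where 13.1% of all genes were. It was Jak2, at 21.1 against 8.28 CPM. At control day 3 against naive, Hsp90b1 at 1.25 (1.15 to 1.35) and Hspa5 at 1.01 (0.90 to 1.12), both chaperones of the endoplasmic reticulum, and Lnpep at 1.21 (0.85 to 1.62) were also 2-fold higher.

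The genes whose course over the 8 libraries was nearest to the mean course of the 10 were sought among 3278 non-members with a mean of at least 50 CPM. They were Tor1aip1, Apobec3, Tgoln1, Exoc4 and BC005537, with root mean square differences of 0.11, 0.12, 0.13, 0.13 and 0.13 on the log2 scale, where the median candidate differed by 0.51. Among the members themselves Psmb8 was nearest to the mean course, at 0.19, and Nlrc5 farthest, at 0.97, followed by Psmb10 at 0.58. The 8 points of each course share library depth and the division of the libraries.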

How the data were processed

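Lumbar microglia of pooled mice were sorted as YFP (+) cells and sequenced with 10x Genomics 3′ chemistry, 1 library for each of 8 groups. Labels and methods name different versions of the kit. The deposited values are raw UMI counts for each gene in each cell barcode, made by the authors without normalization, and the submitters' processing notes name Cell Ranger 2.1.1 and the build mm10. Groups were taken from the labels. Doublets were excluded by a gate at sorting, before the droplets were made, and no doublet caller was run here. Doublets formed in the droplets may remain.

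Cells with at least 1000 UMIs, 500 genes and at most 10% mitochondrial UMIs were kept (93.3% to 100% of each library). Levels are UMI sums as CPM with exact Poisson intervals. Log2 ratios have 0.5 UMIs added and exact conditional intervals, shares have Clopper-Pearson intervals, all at 95% and for counting error only. With 1 library per group no test was run, and a change means at least 2-fold with 100 or more UMIs over both libraries, read against all such genes. Shares of cells, the interferon-marked class and the variance over the mean used cells thinned without replacement to 2000 UMIs, and 935 shallower cells were left out. The class was compared within libraries by UMI sums. Names of the pathway genes follow 1 rule, up to 3 per list and comparison by size of the ratio among those past 2-fold, with Psmb5, Psmb6, Psmb7, H2-K1, H2-D1 and B2m always named. Some genes that this rule names are not reported here. The members and lists were chosen with earlier results of these data known. Ratios were tested on simulated data. Of 27998 gene identifiers, 27645 (98.7%) matched GENCODE M21 on GRCm38, which gave the coordinates, and promoter windows came from RefSeq (GRCm38.p6). Alternatives were other filters on cells, genes and fold, other scalings, other thinning and other limits of the class. Python 3.11.15, numpy 2.4.6 and scipy 1.17.1 were used.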

Additional observations from a re-analysis of the deposited data

Results flagged for a closer look

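Over 10 members and 3 days, 4 results were picked out. In each, the control and the A20 cKO library moved in opposite directions from their own naive library, each beyond its 95% counting interval. The share of all genes that meet this rule is not given here, so the count of 4 is a description only. For Tapbp on day 2 the log2 ratios were -0.22 in control and 0.15 in A20 cKO, a difference of 0.37, and on day 3 they were -0.30 and 0.19, a difference of 0.49. For Psmb9 on day 2 they were -0.49 and 0.38, a difference of 0.87. For Psmb10 on day 3 they were -0.26 and 0.30, a difference of 0.56. Relative to the median gene, the control and A20 cKO ratios of day 2 were -0.10 and 0.22 for Tapbp and -0.37 and 0.46 for Psmb9. The interval of the control Tapbp ratio of day 2, -0.36 to -0.06, held the median over all genes of -0.12. The rule on intervals was applied only to the ratios as they stand, not to those relative to the median gene. The differences were not tested, since each group had 1 library, and the control ratio of day 3 crosses the division of the libraries by shared barcodes.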

How the results depend on the processing

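Each result was computed again under other settings, and none changed direction while past 2-fold. The counts of members past 2-fold moved with the fold itself. At 1.5-fold, 1 member was lower in place of 0 on control days 1 and 2 against naive. At 1.5-fold the members higher were 5 in place of 3 for control day 3 against day 2, 1 in place of 0, 3 in place of 0 and 2 in place of 1 for A20 cKO days 1, 2 and 3 against naive, 4 in place of 2 for A20 cKO naive against control naive, and 3 in place of 1 for A20 cKO day 3 against control day 3. The shares of all genes past 1.5-fold are not given here, so the counts at 1.5-fold show only how the result depends on the limit. For control day 3 against control naive the count of 3 fell to 1 with a stricter filter on cells, without cycling cells, without cells holding a UMI of a monocyte or neutrophil marker (an alternative chosen after seeing the data) and with at least 500 UMIs per gene. Under each of these Nlrc5 held fewer UMIs than the minimum, and Erap1 fell under 2-fold or under the minimum. The same count was 2 when centred on the median gene and 2 with the mean of single-cell CPM. With at least 500 UMIs per gene the counts were also 0 in place of 1 for A20 cKO day 3 against A20 cKO naive and against control day 3, and 1 in place of 2 for A20 cKO naive against control naive. For control day 3 against control day 2 Nlrc5 held 137 UMIs over both libraries, and 83 without cycling cells. Nlrc5 was thus not counted there with at least 500 UMIs per gene or without cycling cells, which left Tap1 and Erap1. Of the 100 log2 ratios, 0 left their intervals without a filter on cells, with the stricter filter, without cells sharing a barcode, without monocyte or neutrophil marker cells or without mitochondrial and ribosomal-protein genes in the total. Without cycling cells 3 did, by at most 0.60, with centring on the median gene 8, and with the mean of single-cell CPM 2. Shares of cells moved in 78 of 80 without thinning and in 77 of 80 with thinning to 1000 UMIs, as depth sets them, and in 2 of 80 with another seed. With limits of 2 or 4 interferon genes, 7 and 8 of 80 marked-over-other ratios left their intervals. Replicates could not be left out, since each group had 1 library. Depth limited Nlrc5 most, with 6 UMIs in control naive.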
